A study of Mus musculus with 9 samples.

Results

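The Krüppel-like factors described here are 10 genes of a family of transcription factors: Klf2, Klf3, Klf4, Klf5, Klf6, Klf7, Klf10, Klf11, Klf13 and Klf15. Their rows were taken from the deposited expression table by gene symbol, and they are 10 of the 16698 genes kept. All 10 passed the filter on low values, as did 13712 genes in all. Another 10 genes of the same family and of the related SP group were in the table and are given further on for comparison.

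Krüppel-like factors bind GC-rich and CACCC sequences through zinc fingers at their C-terminal end, and their differing N-terminal parts recruit coactivators or corepressors. In the cardiovascular system KLF2 and KLF4 are known as factors that blood flow induces in endothelium, KLF5 and KLF4 as regulators of smooth muscle state, and KLF10 and KLF11 as early targets of TGF-beta. KLF15 is a glucocorticoid-responsive, clock-linked factor of heart and skeletal muscle that restrains hypertrophic growth and drives the breakdown of branched-chain amino acids in mice.

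Messenger RNA was measured in left ventricles of ICR/CD1 mice at postnatal day 14, in 3 groups of 3 libraries. Transverse aortic constriction (TAC) narrows the aorta so that the left ventricle works against a raised pressure. In the first group TAC was done at postnatal day 1 (day-1 TAC), which the submitters call the regenerative stage, and in the second at postnatal day 7 (day-7 TAC), the non-regenerative stage. The remaining group was sham-operated, on a day that the labels do not give. The age at surgery and the time since surgery differ together between the TAC groups and cannot be told apart. The strain is outbred, no genotype is given, and separate animals or litters behind the libraries of a group are not stated by the labels. The p-values therefore measure the spread between these libraries, which may be technical.

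Values are the deposited log2 values, scaled between libraries, and 1 unit is a doubling. Reads recovered from them numbered 18535202 to 26521005 per library, and members other than Klf5 had at least 248 reads in every library. Sham replicate 1 stood apart from the other 2 sham libraries for several of the genes below, and those values are given beside the results. A female pattern was carried by day-1 TAC replicate 3 alone, with 10532 reads of Xist and 18 of the Y-linked Ddx3y, whereas the other libraries had at most 40 Xist reads and at least 3312 Ddx3y reads. All 10 markers of cardiomyocytes were detected in every library, with at least 23846 reads for any of them.

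The promoters of Klf15, Klf11 and Klf2 are shown because their genes had the largest falls or the only rise among the members. They are RefSeq windows on GRCm38.p6, from 250 bases before to 50 bases after the gene start, given 5′ to 3′ on the gene's own strand. Klf15 lies on chromosome 6 (chr6:90462326-90462625, plus strand), Klf11 on chromosome 12 (chr12:24651121-24651420, plus strand) and Klf2 on chromosome 8 (chr8:72318812-72319111, plus strand). Capitals mark CACGTG, the E-box bound by clock factors, in Klf15 and Klf11, and a MEF2 box in Klf2.
Klf15: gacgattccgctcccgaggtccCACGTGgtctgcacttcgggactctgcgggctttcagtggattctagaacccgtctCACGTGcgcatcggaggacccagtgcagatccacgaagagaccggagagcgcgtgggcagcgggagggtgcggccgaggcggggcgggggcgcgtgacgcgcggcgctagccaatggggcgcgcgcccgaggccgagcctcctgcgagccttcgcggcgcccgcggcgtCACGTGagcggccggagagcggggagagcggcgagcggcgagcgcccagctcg
Klf11: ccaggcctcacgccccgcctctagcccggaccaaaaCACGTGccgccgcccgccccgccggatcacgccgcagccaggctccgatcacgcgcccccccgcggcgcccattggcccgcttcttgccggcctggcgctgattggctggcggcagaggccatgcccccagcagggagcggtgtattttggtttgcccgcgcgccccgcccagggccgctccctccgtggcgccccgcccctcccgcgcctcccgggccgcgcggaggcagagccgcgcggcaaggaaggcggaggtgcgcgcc
Klf2: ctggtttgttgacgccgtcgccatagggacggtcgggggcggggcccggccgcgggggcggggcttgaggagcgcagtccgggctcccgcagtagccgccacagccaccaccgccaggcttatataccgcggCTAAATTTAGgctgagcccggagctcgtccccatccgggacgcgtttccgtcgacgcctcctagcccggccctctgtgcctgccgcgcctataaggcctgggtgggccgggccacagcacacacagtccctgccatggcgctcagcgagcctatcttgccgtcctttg
The Klf15 window held 3 copies of CACGTG, the first at position -228 from the start, and the Klf11 window held 1, at position -214. The windows of Klf4 and Klf6 held 1 copy each, and those of Klf2, Klf3, Klf7 and Klf13 held 0. CACGTG, which reads the same on both strands, was in 7.2% of 32851 promoters of that length, and it was looked for after the letters of these promoters had been seen. The MEF2 box of Klf2 began at position -118, and 3.2% of promoters held one on either strand. The other motifs searched on both strands were CACCC, in 57.5% of promoters, GGGCGG, in 35.7%, TGACGTCA, in 1.8%, the half-site AGAACA of the glucocorticoid receptor, in 19.0%, and the CArG box, in 1.6%. None of the 8 member promoters matched held TGACGTCA, AGAACA or a CArG box, which says only that these letters are not in the windows. A match describes the sequence and is not evidence of binding.

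Levels were compared between genes as recovered reads scaled to exon length and library depth (RPKM). By group mean, Klf6 was the highest member and Klf5 the lowest in every group, although Klf2 and Klf6 overlapped in day-1 TAC ventricles, at 24.7 to 31.5 RPKM for Klf2 and 28.6 to 32.1 for Klf6. Klf6 averaged 29.8 ± 2.03 RPKM in day-1 TAC, 28.5 ± 2.04 in day-7 TAC and 42.4 ± 12.9 in sham ventricles (SD, n = 3 each). Klf5 averaged 0.386 ± 0.0203 RPKM in day-1 TAC, 0.447 ± 0.0414 in day-7 TAC and 0.447 ± 0.0157 in sham ventricles.

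Next to Klf6 in sham ventricles came members whose spreads overlapped: Klf10 at 20.2 ± 3.66 RPKM, Klf2 at 19.1 ± 1.92, Klf4 at 19.0 ± 0.823 and Klf15 at 18.2 ± 7.98. Below them stood Klf11 at 10.5 ± 0.622, then Klf13 at 8.63 ± 0.669 and Klf7 at 7.89 ± 0.558, whose ranges overlapped, and Klf3 at 4.19 ± 0.66. The order of the means was different in the TAC groups, among neighbours that mostly overlapped. Klf2 was second with 27.5 ± 3.55 RPKM in day-1 TAC ventricles and, with 20.2 ± 3.85, below Klf4 in day-7 TAC ventricles, where Klf4 had 22.4 ± 1.3 and the pair overlapped. Klf15 stood seventh in both TAC groups, at 5.76 ± 1.21 RPKM in day-1 TAC and 6.57 ± 0.387 in day-7 TAC, and Klf11 eighth, at 4.77 ± 0.31 and 5.82 ± 0.481. In day-1 TAC ventricles Klf15, at 4.41 to 6.75 RPKM, overlapped Klf13, at 5.97 to 7.03.

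**Figure D1:**
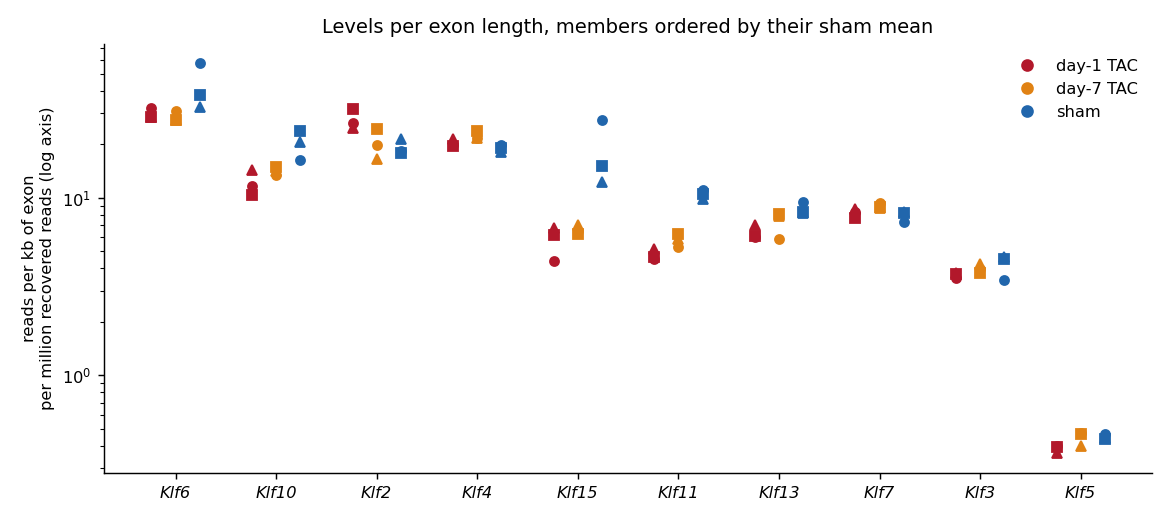
Recovered reads scaled to exon length and library depth (RPKM) for each member, on a log axis, with 1 point per library and the groups in the order day-1 TAC, day-7 TAC, sham. Klf5 is lowest in every library, Klf6 has the highest mean in every group but overlaps Klf2 in day-1 TAC, and Klf15 and Klf11 lie lower in both TAC groups than in sham ventricles.

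Relative to sham ventricles, Klf6, Klf10, Klf11, Klf13 and Klf15 fell and Klf2 rose with day-1 TAC, at an adjusted p under 0.05 in limma with Benjamini-Hochberg adjustment over all genes tested. That was 5 of 10 members lower, where 20.5% of all tested genes were lower, and 1 of 10 higher, where 14.3% were. The median log2 fold change was -0.43 over the members and -0.04 over all tested genes. Between these groups 7 of 10 members had values that did not overlap, against 48.0% of all tested genes.

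With day-7 TAC, Klf6, Klf10, Klf11 and Klf15 fell relative to sham ventricles and none of the members rose. That was 4 of 10 lower, where 15.1% of tested genes were, and 0 of 10 higher, where 13.8% were (1 at an unadjusted limma p under 0.05, Klf4, and 0 with voom). The members' median log2 fold change was -0.22, against -0.01 over all tested genes. Values did not overlap for 7 of 10 members, against 46.7% of genes. Both comparisons use the same sham libraries. In bulk tissue, fewer cells of a type and less RNA per cell cannot be told apart.

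Between the TAC groups Klf11 was lower with day-1 TAC than with day-7 TAC, which was 1 of 10 members lower, where 10.3% of genes were. Of the members 0 of 10 were higher, where 6.42% of genes were (1 at an unadjusted limma p under 0.05, Klf2, and 0 with voom). Values of 5 of 10 members did not overlap, against 38.9% of genes, and the members' median was -0.21, against -0.03 over all tested genes. Limma's F test for any difference among the 3 groups called 5 of 10 members, Klf6, Klf10, Klf11, Klf13 and Klf15, against 44.4% of genes, which is near that background.

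**Figure D2:**
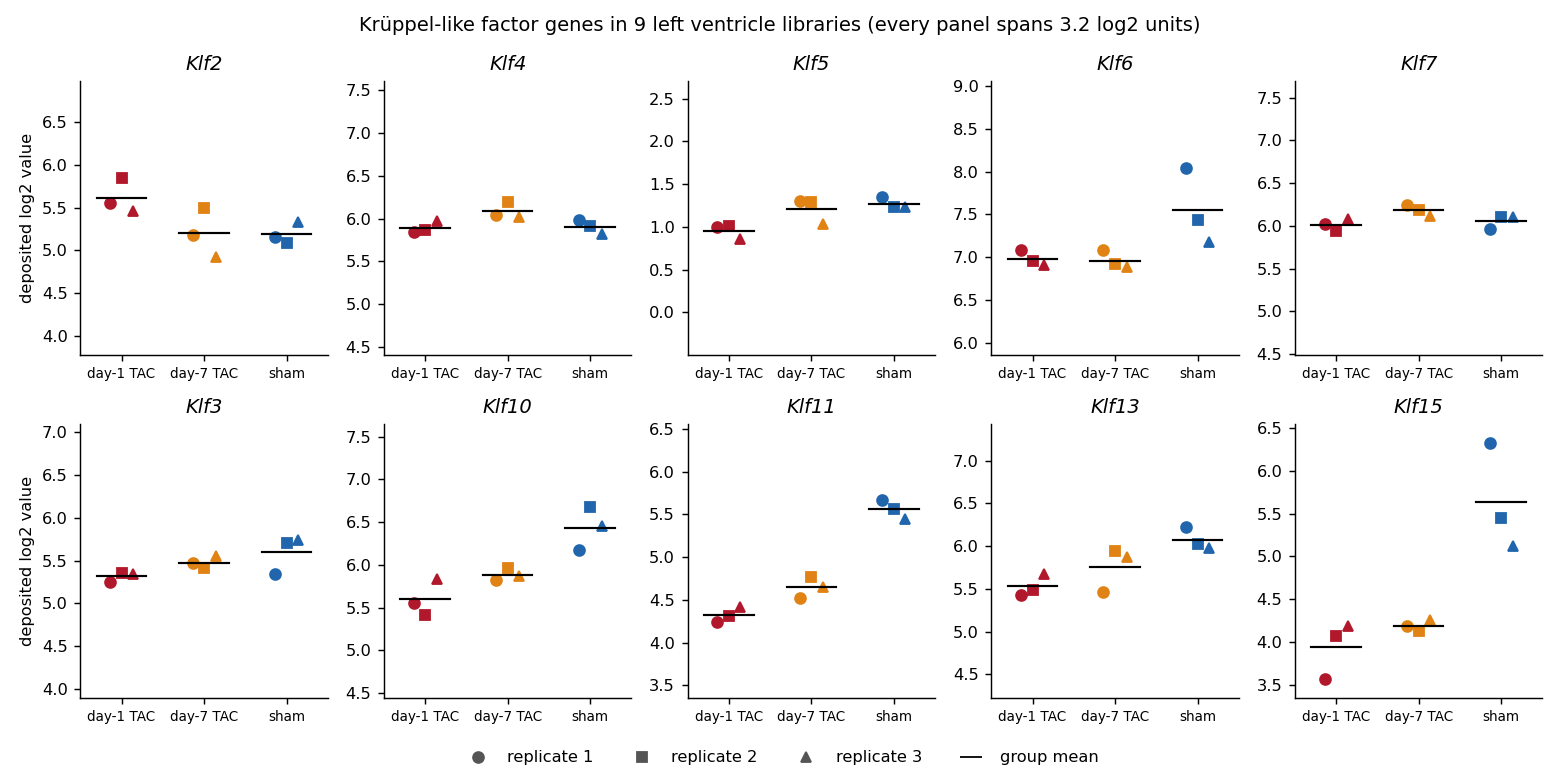
Deposited log2 value of each member in each library, with the group mean as a bar; every panel spans the same number of log2 units. Klf15, Klf11, Klf10 and Klf6 lie lower in all TAC libraries than in all sham libraries. Sham replicate 1 is the highest library for Klf15 and Klf6, and by less for Klf11, Klf13 and Klf5.

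Klf15, the glucocorticoid-responsive factor of muscle, had the largest differences from sham of the members in both TAC groups. Its log2 values were 3.56, 4.07 and 4.18 in day-1 TAC, 4.18, 4.13 and 4.26 in day-7 TAC and 6.33, 5.45 and 5.12 in sham libraries. Every TAC library was below every sham library, while the TAC groups overlapped.

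With day-1 TAC, Klf15 fell to 30.9% of the sham level, a log2 fold change of -1.70 (SE 0.26, limma adjusted p 0.00111). It fell to 36.8% with day-7 TAC (-1.44, SE 0.26, limma adjusted p 0.00305). Between the TAC groups the difference was -0.25 (95% interval -0.83 to 0.33, limma adjusted p 0.536). Sham replicate 1 was the highest library. Without it the log2 fold changes were -1.35 with day-1 TAC and -1.10 with day-7 TAC, and both calls held.

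Some glucocorticoid-linked genes were highest of the sham libraries in that library and others were not. Of the 10 in the list below, 6 were highest and 3 lowest in it. Per1, a clock gene, had 6.46 there and 5.32 and 5.21 in the other sham libraries. Tsc22d3, which encodes the glucocorticoid-induced leucine zipper, had 7.74 there, against 6.75 and 6.85. Fkbp5, a chaperone of the receptor, had 6.08 there, against 4.53 and 4.72. Zbtb16, a glucocorticoid-induced repressor, was lowest there, with 6.82, against 7.13 and 7.69. For 4 erythroid markers the deposited values were taken out of the log and summed. The sums were 631 to 857 in day-1 TAC and 352 to 415 in day-7 TAC libraries. They were 1010 in that sham library and 330 and 276 in the other sham libraries. The parts of the erythroid sums and of the glucocorticoid-linked values in the Klf15 result were not tested.

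In the list of glucocorticoid genes, limma called 5 of 10 lower and 0 higher with day-1 TAC relative to sham ventricles (1 higher at an unadjusted p under 0.05 and 1 with voom). With day-7 TAC it called 4 of 10 lower and 0 higher (0 and 0 in the same way). The list mixes receptor and enzyme genes with genes that glucocorticoids induce, so its counts and medians do not describe the response alone. The median log2 fold changes were -0.85 with day-1 TAC and -0.24 with day-7 TAC over the list, against -0.04 and -0.01 over all tested genes. Without sham replicate 1, 4 fell and 0 rose with day-1 TAC (median -0.45), and 3 fell and 1 rose with day-7 TAC (median -0.19). Tsc22d3 fell by 0.93 with day-1 TAC (limma adjusted p 0.00812), or -0.61 without that library (limma adjusted p 0.0039). Nr3c2, the mineralocorticoid receptor, fell with day-1 TAC (-0.92, limma adjusted p 0.00233) and with day-7 TAC (-0.64, limma adjusted p 0.0155). Hsd11b1, which regenerates active glucocorticoid, fell by 1.89 with day-1 TAC (limma adjusted p 0.021) and fell by 2.14 with day-7 TAC (limma adjusted p 0.0145). It had only 11 to 31 reads in the TAC libraries and 117, 146 and 31 in the sham libraries. The lowest sham value, 0.69, was close to the 0.59 of day-1 TAC replicate 3. Zbtb16 fell with day-1 TAC (-1.85 against sham, limma adjusted p 0.0175), whereas its difference with day-7 TAC was 0.01 (limma adjusted p 0.994). Its direct difference between the TAC groups was -1.86 (limma adjusted p 0.032), with day-1 TAC replicate 3 (6.39) above day-7 TAC replicate 1 (6.10). Nr3c1, the glucocorticoid receptor, did not pass with day-1 TAC (0.05, limma adjusted p 0.709) or day-7 TAC (-0.07, limma adjusted p 0.623). Neither did Fkbp5, with differences of -0.78 (limma adjusted p 0.167) and 0.42 (limma adjusted p 0.472).

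**Figure D3:**
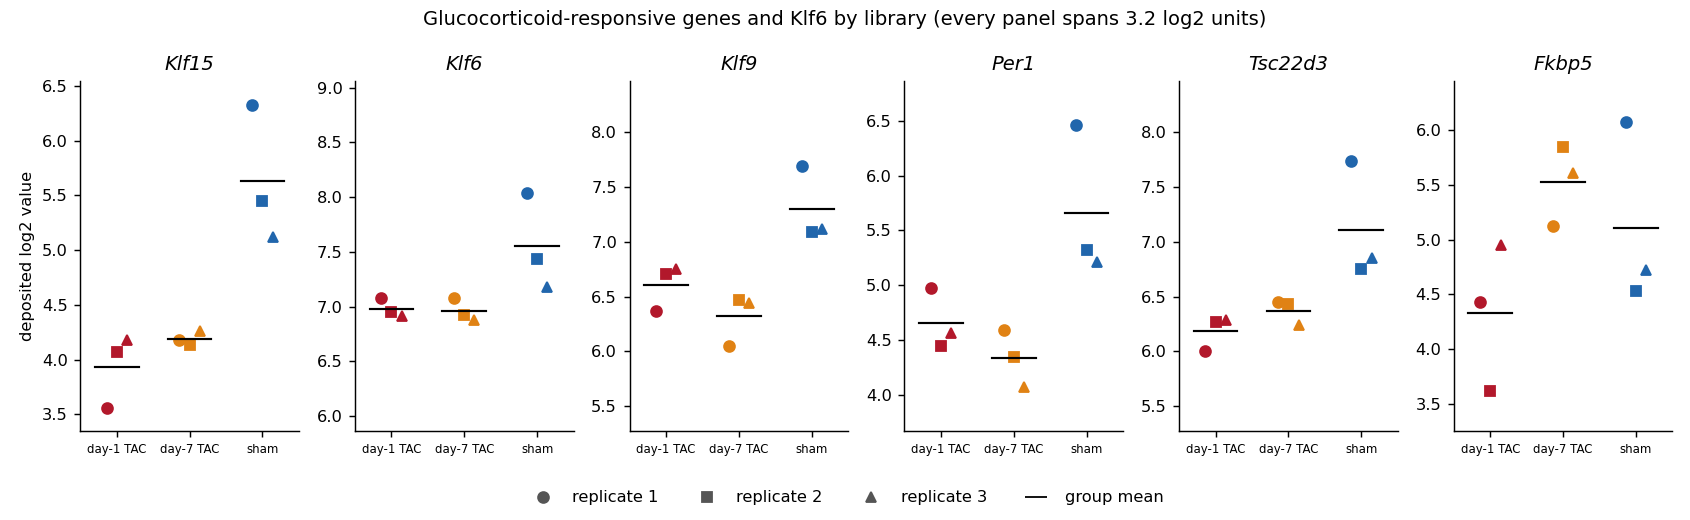
Deposited log2 values by library for Klf15, Klf6, the family member Klf9 and the glucocorticoid-responsive genes Per1, Tsc22d3 and Fkbp5, with group means as bars. Sham replicate 1 is the highest library in every panel; the genes were picked for that.

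Branched-chain amino acid breakdown is driven by KLF15 in mouse muscle and heart. Of its 19 genes, 4 were lower and 2 higher with day-1 TAC, and 11 were lower and 0 higher with day-7 TAC, relative to sham ventricles (0 higher also at an unadjusted limma p under 0.05 and with voom). The list includes Prodh, of proline breakdown; without it 3 were lower and 2 higher with day-1 TAC, and 10 were lower and 0 higher with day-7 TAC. Ppm1k, the phosphatase that activates the branched-chain ketoacid dehydrogenase, had log2 values of 4.99, 5.52 and 5.22 in day-1 TAC, 4.90, 4.85 and 5.15 in day-7 TAC and 6.72, 6.72 and 6.48 in sham libraries. It fell in both TAC groups without overlap with sham (-1.40 with day-1 TAC, limma adjusted p 0.000131, and -1.67 with day-7 TAC, limma adjusted p 7.55e-05). Aldh6a1, of valine breakdown, fell by 0.95 with day-1 TAC (limma adjusted p 0.000624) and fell by 0.90 with day-7 TAC (limma adjusted p 0.00095).

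Bcat2, Ivd and Pcca fell with day-7 TAC and did not pass with day-1 TAC, while Mccc1 fell with day-7 TAC (-0.44, limma adjusted p 0.00202) and rose with day-1 TAC (0.25, limma adjusted p 0.0231). Bcat2, the mitochondrial transaminase that opens the pathway, had 5.29, 5.25 and 5.48 in day-1 TAC, 4.78, 4.63 and 4.80 in day-7 TAC and 5.42, 5.34 and 5.20 in sham libraries. It was lower with day-7 TAC than in either other group. The direct comparison of the TAC groups called 7 of the 19 genes higher with day-1 TAC and 0 lower (0 lower also at an unadjusted p under 0.05 and with voom), among them Bcat2 (0.60, limma adjusted p 0.00363), Ivd (0.55, limma adjusted p 0.00203) and Mccc1 (0.70, limma adjusted p 0.000668). Klf15 itself did not pass in that comparison.

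Of 11 other genes named as cardiac targets of KLF15 in earlier work, 5 fell and 2 rose with day-1 TAC. With day-7 TAC 4 fell and 2 rose, or 1 fell and 2 rose without sham replicate 1. The list mixes genes that KLF15 is known to activate with others that it represses, so the counts mix both roles. The natriuretic peptide genes Nppa and Nppb, markers of ventricular load, were the pair with the smallest p. Nppa rose by 2.80 with day-1 TAC (limma adjusted p 7.1e-05) and by 3.29 with day-7 TAC (limma adjusted p 3.72e-05). Acot1, an acyl-CoA thioesterase, had log2 values of 2.07, 3.03 and 4.01 in day-1 TAC, 4.49, 4.22 and 4.30 in day-7 TAC and 5.97, 5.75 and 5.08 in sham libraries. It fell in both comparisons with sham and was lower with day-1 TAC than with day-7 TAC (-1.30, limma adjusted p 0.0473).

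Klf11 and Klf10, the TGF-beta-inducible repressors that bind SIN3A, fell in both TAC groups. Klf11 had log2 values of 4.24, 4.31 and 4.42 in day-1 TAC, 4.52, 4.77 and 4.65 in day-7 TAC and 5.67, 5.56 and 5.45 in sham libraries. The 3 groups did not overlap, with day-1 TAC lowest and sham highest.

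Klf11 fell to 42.4% of the sham level with day-1 TAC (-1.24, SE 0.09, limma adjusted p 6.88e-05) and stood at rank 13 of 13712 genes by p. With day-7 TAC it fell to 53.2% (-0.91, SE 0.09, limma adjusted p 0.000208). Both calls held in all 16 alternatives. Sham replicate 1 was the highest library, and without it the log2 fold changes were -1.18 with day-1 TAC and -0.86 with day-7 TAC. The difference between the TAC groups was smaller (-0.33, SE 0.09, limma adjusted p 0.04). That call was lost in 11 of 17 alternatives, with adjusted p-values up to 0.131. They include leaving out day-1 TAC replicate 1 (adjusted p 0.0996) or 2 (0.0904), day-7 TAC replicate 2 (0.131) or 3 (0.0978), and sham replicate 2 (0.0593), each from limma.

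Klf10 had log2 values of 5.55, 5.41 and 5.84 in day-1 TAC, 5.82, 5.96 and 5.87 in day-7 TAC and 6.17, 6.68 and 6.45 in sham libraries. Every TAC library was below every sham library, and the TAC groups overlapped. Klf10 fell to 56.1% of the sham level with day-1 TAC (-0.83, SE 0.14, limma adjusted p 0.00144) and to 68.2% with day-7 TAC (-0.55, SE 0.14, limma adjusted p 0.0128). Unlike Klf15 and Klf6, Klf10 was lowest among sham libraries in replicate 1.

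Of 14 genes linked to TGF-beta signalling, 3 rose and 3 fell with day-1 TAC, and 2 rose and 1 fell with day-7 TAC. The list holds genes that carry the signal and others that restrain it, so its counts mix both roles. Without sham replicate 1, 2 rose and 2 fell with day-1 TAC, and 1 rose and 1 fell with day-7 TAC. The ligand gene Tgfb2 rose in both (0.81, limma adjusted p 0.00906, and 0.79, limma adjusted p 0.0118), and Tgfb3 rose with day-1 TAC (0.62, limma adjusted p 0.00528). Tgfbr3, the co-receptor betaglycan, had 5.04, 5.34 and 5.47 in day-1 TAC, 5.53, 5.49 and 5.61 in day-7 TAC and 6.67, 6.83 and 6.48 in sham libraries, so that it lay below sham in every TAC library. It fell by 1.38 with day-1 TAC (limma adjusted p 8.68e-05) and fell by 1.12 with day-7 TAC (limma adjusted p 0.00022). Smad4, the shared signal transducer, fell with day-1 TAC (-0.45, limma adjusted p 0.00147), and its difference with day-7 TAC was -0.18 (limma adjusted p 0.0838).

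Among 14 corepressors and coactivators that Krüppel-like factors use, 6 fell and 1 rose with day-1 TAC, and 2 fell and 1 rose with day-7 TAC. With sham replicate 1 left out, 3 fell and 0 rose with day-1 TAC. Sin3a, whose protein KLF10, KLF11 and KLF13 bind, fell by 0.35 with day-1 TAC (limma adjusted p 0.00594) and fell by 0.33 with day-7 TAC (limma adjusted p 0.0102). The acetyltransferase gene Crebbp fell by 0.54 with day-1 TAC (limma adjusted p 0.000875) and fell by 0.41 with day-7 TAC (limma adjusted p 0.00407). Hdac1, a histone deacetylase, rose with day-7 TAC (0.44, limma adjusted p 0.00888), and its difference with day-1 TAC was 0.21 (limma adjusted p 0.126).

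Klf13, a factor of the same SIN3A-binding branch, had log2 values of 5.43, 5.49 and 5.67 in day-1 TAC, 5.46, 5.94 and 5.87 in day-7 TAC and 6.22, 6.02 and 5.98 in sham libraries. Both TAC groups lay below sham without overlap, and day-7 TAC replicate 1 sat among the day-1 TAC values. Klf13 fell to 68.7% of the sham level with day-1 TAC (-0.54, SE 0.13, limma adjusted p 0.00869). Without sham replicate 1, the highest library, Klf13 fell by 0.47 with day-1 TAC (limma adjusted p 0.033). With day-7 TAC its difference from sham did not pass (-0.31, 95% interval -0.60 to -0.03, limma adjusted p 0.0879), and neither did its difference between the TAC groups (-0.23, limma adjusted p 0.239).

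Klf6, an injury-induced activator, had log2 values of 7.08, 6.95 and 6.91 in day-1 TAC, 7.08, 6.92 and 6.88 in day-7 TAC and 8.04, 7.43 and 7.18 in sham libraries. The TAC groups had nearly the same values, all below sham, and sham replicate 1 was the highest library. Klf6 fell by 0.57 with day-1 TAC (SE 0.17, limma adjusted p 0.0274) and fell by 0.59 with day-7 TAC (SE 0.17, limma adjusted p 0.0279). Its difference between the TAC groups was 0.02 (95% interval -0.37 to 0.40).

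Without sham replicate 1 the Klf6 differences were -0.33 with day-1 TAC and -0.35 with day-7 TAC, and the limma adjusted p-values were 0.0337 and 0.0332. The call with day-1 TAC was lost in 5 of 16 alternatives, among them leaving out day-1 TAC replicate 2 (limma adjusted p 0.065) or 3 (limma adjusted p 0.0723). The call with day-7 TAC was lost in 3 of 16, among them leaving out day-7 TAC replicate 2 (limma adjusted p 0.0815) or 3 (limma adjusted p 0.0835). The glucocorticoid-linked genes that were high in that sham library were high where Klf6 was, and their part was not tested.

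Klf7, the nearest relative of Klf6, had log2 values between 5.94 and 6.25 in all 9 libraries and passed in none of the comparisons. Its difference was -0.04 with day-1 TAC (95% interval -0.20 to 0.12) and 0.13 with day-7 TAC (95% interval -0.03 to 0.29). Exons of Klf7 share 3196 bases with Gm26649 on the opposite strand. That gene had 107 to 151 reads per library, against 1244 to 1822 for Klf7, and the strand setting of the counting is not given in the sources used here.

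Klf2, the flow-induced endothelial factor, was the only member called higher. It had log2 values of 5.55, 5.84 and 5.46 in day-1 TAC, 5.18, 5.50 and 4.92 in day-7 TAC and 5.16, 5.09 and 5.33 in sham libraries. All day-1 TAC libraries were above all sham libraries, while day-7 TAC overlapped both other groups.

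Klf2 rose to 134% of the sham level with day-1 TAC (0.42, SE 0.15, limma adjusted p 0.0471). Its difference with day-7 TAC was 0.01 (95% interval -0.32 to 0.33, limma adjusted p 0.979), and between the TAC groups it was 0.41 (95% interval 0.09 to 0.74, limma adjusted p 0.078). The difference between the TAC groups passed in 3 of 17 alternatives: quantile normalization (adjusted p 0.0489), leaving out day-7 TAC replicate 2 (0.0345) and the replicate block (0.0401), each from limma. The call against sham was lost in 6 of 16 alternatives, with adjusted p-values up to 0.152. They are the fit without an intensity trend (limma adjusted p 0.0781) and leaving out day-1 TAC replicate 1 (0.0728) or 2 (0.152), day-7 TAC replicate 1 (0.0619), and sham replicate 1 (0.108) or 2 (0.141), all from limma.

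Klf4, which shares endothelial targets with Klf2 and also acts in smooth muscle, passed in none of the comparisons. Its log2 values were 5.85, 5.87 and 5.97 in day-1 TAC, 6.04, 6.20 and 6.02 in day-7 TAC and 5.99, 5.91 and 5.82 in sham libraries. Day-7 TAC lay just above both other groups. The difference was -0.01 with day-1 TAC (95% interval -0.19 to 0.16) and 0.18 with day-7 TAC (95% interval 0.01 to 0.35, limma adjusted p 0.108), and -0.19 between the TAC groups (limma adjusted p 0.11).

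Of 18 endothelial genes downstream of KLF2 and KLF4, 5 rose and 4 fell with day-1 TAC, and 8 rose and 2 fell with day-7 TAC, relative to sham ventricles. The list's median log2 fold changes were 0.16 and 0.39. It mixes genes that these factors induce with others that they repress, such as Sele. Its counts and medians therefore do not describe a response in 1 direction. Thbd, the anticoagulant thrombomodulin, rose by 0.44 with day-1 TAC (limma adjusted p 0.00495) and by 0.60 with day-7 TAC (limma adjusted p 0.00129). Plat, tissue plasminogen activator, rose by 0.55 with day-1 TAC (limma adjusted p 0.000943) and by 0.64 with day-7 TAC (limma adjusted p 0.000543). Sele, the adhesion molecule E-selectin, rose by 1.48 with day-1 TAC (limma adjusted p 0.00475) and by 1.66 with day-7 TAC (limma adjusted p 0.00336). Sham libraries had only 18, 25 and 13 reads of Sele. Among the genes that fell, Adamts5 differed by -0.72 with day-1 TAC (limma adjusted p 0.00135) and by -0.62 with day-7 TAC (limma adjusted p 0.0035).

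Nos3, endothelial nitric oxide synthase, rose with day-7 TAC (0.28, limma adjusted p 0.0249), and its difference with day-1 TAC was -0.05 (limma adjusted p 0.631). Directly compared, Nos3 was lower with day-1 TAC than with day-7 TAC (-0.33, limma adjusted p 0.0195), where Klf2 had a difference of 0.41 that did not pass. Of 12 endothelial markers, 4 fell and 0 rose with day-1 TAC (1 higher at an unadjusted limma p under 0.05 and 0 with voom), 3 fell and 1 rose with day-7 TAC, and 0 were called between the TAC groups by limma, with 0 at an unadjusted p under 0.05 and 0 with voom. On leaving out sham replicate 1, 2 fell with day-1 TAC and 2 with day-7 TAC. Their summed value was 1670 to 1840 in day-1 TAC, 1750 to 1820 in day-7 TAC and 1830 to 1940 in sham libraries. The part of endothelial abundance in the Klf2 values was not tested.

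Of 14 genes upstream of Klf2 and Klf4, such as the MEKK3, ERK5 and MEF2 genes, limma called 0 higher and 5 lower with day-1 TAC (1 higher at an unadjusted p under 0.05 and 0 with voom), and 2 higher and 3 lower with day-7 TAC. Without sham replicate 1, 1 rose and 5 fell with day-1 TAC, and 1 rose and 4 fell with day-7 TAC. The list holds genes that carry the input and others that restrain it, so its counts mix both roles. Mef2a, a MEF2 factor, fell by 0.58 with day-1 TAC (limma adjusted p 0.000759) and fell by 0.25 with day-7 TAC (limma adjusted p 0.04). Map3k3, which encodes MEKK3, fell with day-1 TAC (-0.33, limma adjusted p 0.00672). Hdac5, a deacetylase that represses MEF2 factors, fell by 0.81 with day-1 TAC (limma adjusted p 0.000812) and fell by 0.90 with day-7 TAC (limma adjusted p 0.000588). Piezo1, a mechanically gated channel, rose with day-7 TAC (0.41, limma adjusted p 0.00776) and was lower with day-1 TAC than with day-7 TAC (-0.44, limma adjusted p 0.0103).

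Klf5, known from vascular smooth muscle and fibroblasts, had only 35 to 60 reads per library. Its log2 values were 1.00, 1.01 and 0.86 in day-1 TAC, 1.30, 1.29 and 1.03 in day-7 TAC and 1.35, 1.23 and 1.23 in sham libraries. Day-1 TAC was the lowest group without overlap, but the difference from sham did not pass (-0.31, 95% interval -0.71 to 0.08, limma adjusted p 0.20), except without the intensity trend (limma adjusted p 0.0398).

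Smooth muscle genes governed by KLF4, KLF5 and SRF were mixed: 1 of 13 rose and 3 fell with day-1 TAC, and 2 rose and 2 fell with day-7 TAC. Acta2, smooth muscle actin, rose with day-7 TAC (1.08, limma adjusted p 0.00663), and Tagln, transgelin, rose with day-1 TAC (0.51, limma adjusted p 0.00876). Both genes differed directly between the TAC groups, with Acta2 lower with day-1 TAC (-0.83, limma adjusted p 0.0339) and Tagln higher (0.39, limma adjusted p 0.0475). Smtn fell by 0.57 with day-1 TAC (limma adjusted p 0.0176) and fell by 0.68 with day-7 TAC (limma adjusted p 0.00929). Myocd fell with day-1 TAC (-0.76, limma adjusted p 0.0173) and Lmod1 with day-7 TAC (-0.90, limma adjusted p 0.0131).

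Klf3, a repressor that works through CtBP, had log2 values of 5.25, 5.36 and 5.34 in day-1 TAC, 5.47, 5.41 and 5.55 in day-7 TAC and 5.34, 5.71 and 5.74 in sham libraries. Sham replicate 1 was the lowest sham library and overlapped day-1 TAC. The difference with day-1 TAC did not pass (-0.28, 95% interval -0.51 to -0.05, limma adjusted p 0.0598), nor did that with day-7 TAC (-0.12, limma adjusted p 0.412). Without sham replicate 1 both passed, at -0.41 (limma adjusted p 0.00569) and -0.25 (limma adjusted p 0.0466). Exons of Klf3 share 404 bases with the opposite-strand gene Gm20033, which had 12 to 32 reads per library.

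**Figure D4:**
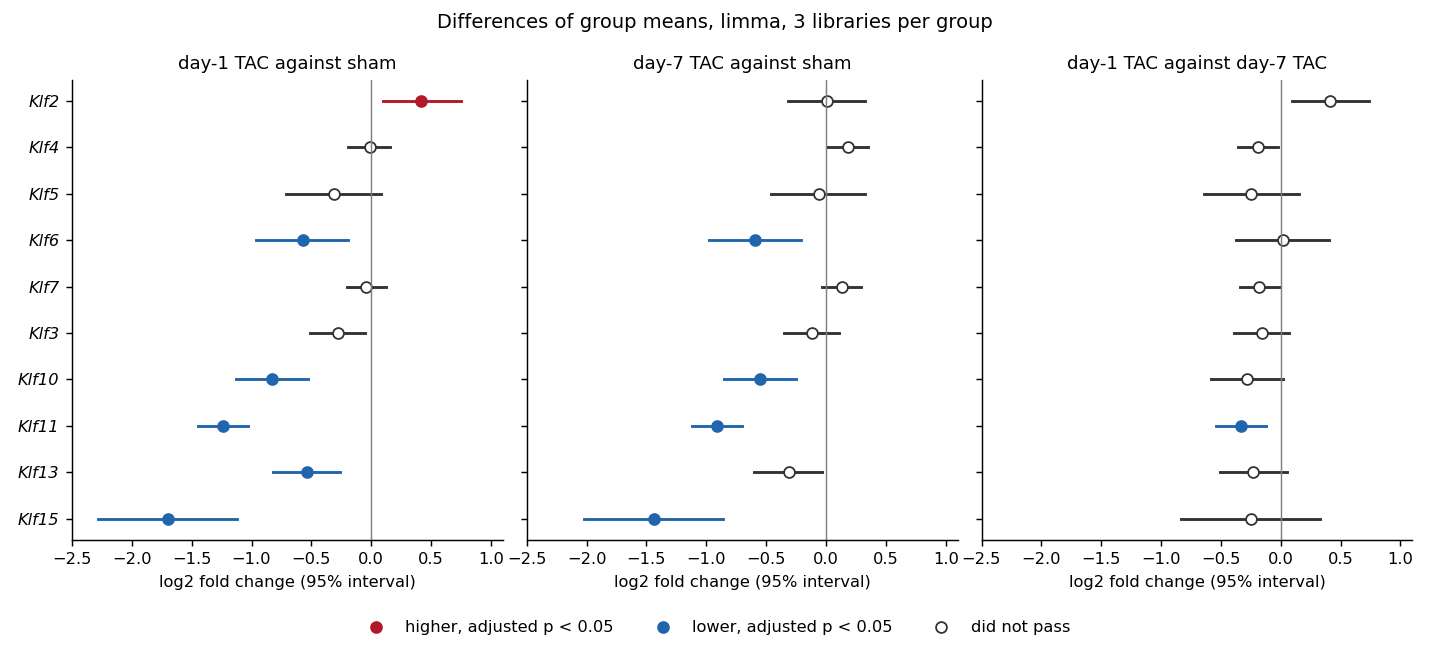
Log2 fold changes of the members with 95% intervals in the 3 comparisons, with filled points for those that passed at an adjusted p under 0.05. With day-1 TAC 5 members are lower and Klf2 is higher, with day-7 TAC 4 are lower, and between the TAC groups Klf11 is lower with day-1 TAC.

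Of the other Krüppel-like and SP genes, 8 of the 10 in the table were tested. In each comparison with sham 5 of them fell and 0 rose (0 higher also at an unadjusted p under 0.05 and with voom), and 0 were called between the TAC groups by limma, where the smallest adjusted p was 0.131, for Sp4 (1 at an unadjusted p under 0.05, 0 with voom). On leaving out sham replicate 1, 3 fell with day-1 TAC and 4 with day-7 TAC. Klf9, which glucocorticoids also induce, had log2 values of 6.37, 6.71 and 6.75 in day-1 TAC, 6.05, 6.47 and 6.44 in day-7 TAC and 7.69, 7.09 and 7.12 in sham libraries, highest again in sham replicate 1. It fell by 0.69 with day-1 TAC (limma adjusted p 0.0122) and fell by 0.98 with day-7 TAC (limma adjusted p 0.0028). Without sham replicate 1 these were -0.50 (limma adjusted p 0.0332) and -0.79 (limma adjusted p 0.00695). Sp1, the founding SP factor, fell by 0.39 with day-1 TAC (limma adjusted p 0.00331) and fell by 0.30 with day-7 TAC (limma adjusted p 0.0149). Sp4 and Klf12 fell in both comparisons too, with log2 fold changes of -0.63 and -0.35 with day-1 TAC and -0.39 and -0.56 with day-7 TAC.

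Immediate-early genes, which stimuli commonly induce together with Klf2, Klf4, Klf6 and Klf10, are given beside the members. Of 19 tested, 11 rose and 0 fell with day-1 TAC (0 lower also at an unadjusted limma p under 0.05 and with voom), and 7 rose and 2 fell with day-7 TAC, relative to sham ventricles. Egr2 rose by 3.94 with day-1 TAC (limma adjusted p 0.000176) and by 1.73 with day-7 TAC (limma adjusted p 0.0101). Sham libraries had only 7, 19 and 18 reads of Egr2. Nr4a1 rose by 1.23 with day-1 TAC (limma adjusted p 0.000237) and by 0.89 with day-7 TAC (limma adjusted p 0.0013). Egr1 rose with day-1 TAC (1.94, limma adjusted p 0.0018) and its difference with day-7 TAC was 0.19 (limma adjusted p 0.696). Between the TAC groups 5 were higher with day-1 TAC and 2 lower. The 5 were Egr2 (2.21), Egr1 (1.75), Fos (1.27), Ier2 (0.81) and Junb (0.67), of which Fos and Junb were named after their values were seen. Atf3 and Nr4a3 were lower with day-1 TAC than with day-7 TAC, by differences of -2.07 (limma adjusted p 0.00196) and -2.60 (limma adjusted p 0.00101).

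**Figure D5:**
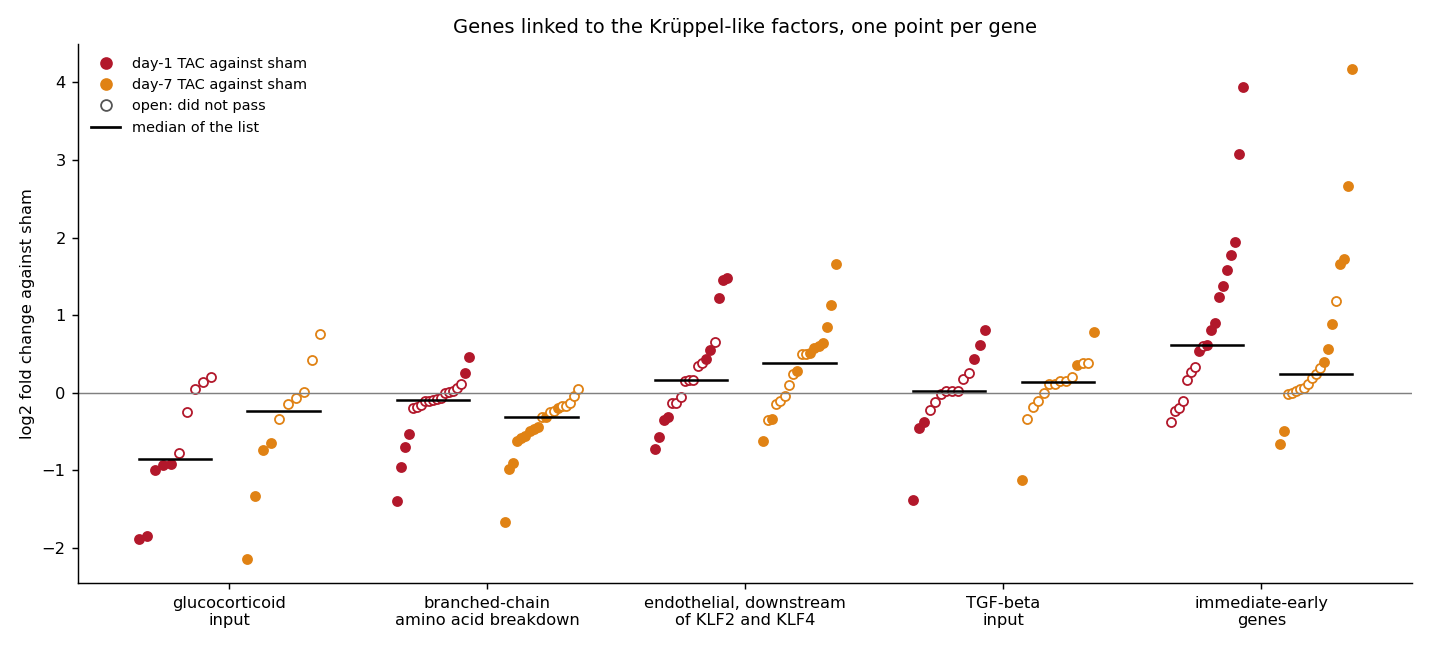
Log2 fold change against sham of each tested gene in 5 lists linked to the Krüppel-like factors, for day-1 TAC and day-7 TAC, with medians as bars and open points for genes that did not pass. Most glucocorticoid genes lie below 0 with day-1 TAC, and most immediate-early genes lie above 0.

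Markers of other cells moved between the groups as well. Of 7 tested neutrophil markers, 5 rose with day-1 TAC and 7 with day-7 TAC. The summed value of the 8 neutrophil markers present was 7.29 to 32.6 in day-1 TAC, 31.3 to 70.3 in day-7 TAC and 2.13 to 4.39 in sham libraries. Of 12 macrophage markers, 4 rose and 1 fell with day-1 TAC, 0 rose and 4 fell with day-7 TAC (0 higher also at an unadjusted limma p under 0.05 and with voom), and 7 were higher with day-1 TAC than with day-7 TAC. A single macrophage marker rose with day-1 TAC when sham replicate 1 was left out. Of 10 fibroblast markers, 3 rose and 1 fell with day-1 TAC, and 0 were called with day-7 TAC by limma, with 1 at an unadjusted p under 0.05 and 0 with voom. Of 10 smooth muscle cell and pericyte markers, 2 rose and 3 fell with day-1 TAC, and 2 rose and 0 fell with day-7 TAC (1 lower at an unadjusted limma p under 0.05 and 0 with voom). With sham replicate 1 left out, 1 rose and 2 fell with day-1 TAC. Their summed value was 1670 to 2050 in day-1 TAC, below the 2290 to 2400 in day-7 TAC and 2330 to 2520 in sham libraries. That sum weighs the most abundant markers, Rgs5 and Abcc9, most. Both fell with day-1 TAC (-0.30, limma adjusted p 0.0265, and -1.08, limma adjusted p 0.00174). Tagln and Cspg4 rose (0.51, limma adjusted p 0.00876, and 0.52, limma adjusted p 0.0237). The part of the sum in the Klf4 and Klf5 values was not tested. Of 10 cardiomyocyte markers, 1 rose and 3 fell with day-1 TAC, and 2 rose and 2 fell with day-7 TAC. Summed cardiomyocyte marker values were 96300 to 127000 in day-1 TAC, 121000 to 130000 in day-7 TAC and 136000 to 140000 in sham libraries. The sum weighs the most abundant marker, Myh6, most. Myh6 did not pass with day-1 TAC (-0.49, limma adjusted p 0.117), and Actc1 rose (0.89, limma adjusted p 0.0036). The part of the cardiomyocyte and other markers in the differences of Klf15, Klf11 and Klf10 was not tested.

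Genes whose values across the 9 libraries were most like those of the 3 members with the smallest F-test p were sought among 11107 genes, by the root mean square difference after each gene's mean was removed. Closest to Klf11 was Rit1, at 0.111 log2 units, with Nadk2 at 0.128 and Ppp1r26 at 0.13. Closest to Klf15 was Sult1a1, at 0.178, followed by Art3 at 0.211 and Selenbp1 at 0.22. Closest to Klf10 was Tmem245, at 0.115, followed by Cds2 at 0.136 and Slit2 at 0.138. These are descriptions of 9 libraries that share their scaling.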

How the data were processed

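Tools named in the submitters' processing notes are STAR, Trim Galore and edgeR, with the build mm10; no version, annotation or strand setting is given in the sources used here. Per the labels' protocols, ScriptSeq v2 libraries from purified mRNA were read in a single-ended run with 50 cycles. The authors deposited log2 values, which the file header calls TMM-scaled. They fill 16710 rows, of which 12 rows of 3 duplicated symbols were left out. In 2 sham columns the header is the same, so sham replicates 2 and 3 are named by column order and pair nothing.

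Taken out of the log, 100.0% of values were whole multiples of a step within a tolerance of 0.001 reads. The lowest value was taken as 1 read, and a pseudocount of 1 cannot be told from none, so a gene without reads in a library may be missed. The recovered reads gave RPKM with exon lengths from GENCODE on GRCm38 (mm10), and the count-based alternative (voom). Summed values of cell markers are deposited values taken out of the log and added up, without exon lengths.

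Genes above 0 in at least 3 libraries were tested with limma 3.58.1 in R 4.3.3 on the log2 values of all 9 libraries, with an intensity trend. Tests were two-sided and adjusted by Benjamini-Hochberg over 13712 genes. Steps were tested on simulated data. A first simulation gave more false calls than the limit set for it, its scaling was then changed to equal library medians, as in the deposited values, and the share of false calls among calls was still above 0.05. Within-group libraries differed by more than sampling noise. The members and gene lists were chosen with earlier results of these data known. Up to 4 genes with the smallest p of each list and comparison could be named, with genes highest in sham replicate 1 picked after their values were seen. Nr3c1, Myh6 and Rgs5 were also named after their values were seen. Alternatives changed the filter, scaling, variance trend, pseudocount, model, and libraries, and left out each of the 9 libraries. The counts of the lists without sham replicate 1, and of the branched-chain list without Prodh, were added after seeing the data.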

Additional observations from a re-analysis of the deposited data

Results flagged for a closer look

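Klf11 differed between the TAC groups by -0.33 on the log2 scale, lower with day-1 TAC than with day-7 TAC; it was the only member called in that comparison, and age at surgery and time since surgery differ together between these groups. All 3 day-1 TAC libraries were below all 3 day-7 TAC libraries, and the limma adjusted p was 0.04. The call was lost in 11 of 17 alternatives.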

How the results depend on the processing

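Of 490 member values under alternatives, 445 kept their direction and side of the threshold, 25 lost a call, 6 gained one and 14 changed sign. Klf15, Klf11 and Klf10 in both comparisons with sham, and Klf13 with day-1 TAC, kept their calls in all 16. Members called between the TAC groups numbered 0 with TMM computed anew, 0 without the intensity trend, 0 with voom and 0 with only the 2 groups compared, against 1. Leaving out each library gave 0 to 1, and the number of genes called in all was 1258 to 2495, against 2287. For day-7 TAC against sham it gave 2587 to 4397 genes, against 3962. The cause was not tested. The values that changed sign did not pass before or after. Klf4 with day-1 TAC was 0.02 with TMM anew, 0.08 with quantile normalization and 0.02 with voom, and -0.06 to 0.03, with 0.01 between, on leaving out a library. Klf7 with day-1 TAC was 0.06 with quantile normalization. Klf2 with day-7 TAC was -0.0022 with quantile normalization and -0.14 to 0.15, with -0.05 and -0.01 between, on leaving out a library. Klf5 with day-7 TAC was 0.03, and Klf6 between the TAC groups -0.03, -0.02 and -0.003, on leaving out a library. With quantile normalization 50.7% of calls with day-1 TAC against sham were higher, against 41.1%, and 48.5% against 38.5% between the TAC groups.

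With the replicate number as a block in the 6 TAC libraries, 1167 genes and 1 member were called, Klf2 (0.41, limma adjusted p 0.0401), and Klf11 was not (0.0884). Same-numbered TAC libraries had correlations of deviations of -0.224, -0.11 and -0.036, against -0.167 to 0.228 for differently numbered ones. With 3 libraries per group these values cannot decide whether the numbers pair the libraries. No paired analysis was possible for the comparisons with sham because the columns do not give all sham numbers. Klf5 had the fewest reads of the members, and the part of depth in its results was not tested.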
